A study of Mus musculus with 8 samples.

Results

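The thioredoxin system was followed in both cell types of the series through 8 genes, chosen by name: the thioredoxin reductases Txnrd1, Txnrd2 and Txnrd3, the thioredoxins Txn1 and Txn2, and their partners Txnip, Srxn1 and Txndc17. These are 8 of the 19382 genes listed in the 2 expression tables together, and each of the 8 is listed in both tables. The rule that chose them used their names, and it was set with earlier results of these data known. Auranofin, a gold compound, is a known inhibitor of thioredoxin reductase, and the study blotted thioredoxins and thioredoxin reductases in these cells. From the blots it reported that the macrophages and stellate cells lack the reductase protein. It also reported that an inhibitor of thioredoxin reductase did not lower the cytokine release that depends on the inflammasome. It proposed that auranofin blocks the inflammasome mainly through another target, the cystine-glutamate antiporter. That proposal rested on cystine uptake, on inhibitors of the antiporter and on cystine-free medium. The transcripts of the same genes are described here, and protein was not measured with them.

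Thioredoxins are small proteins that reduce disulfide bonds in other proteins. Thioredoxin reductase returns oxidised thioredoxin to its active form with electrons from NADPH, and it carries a selenocysteine near its end to which gold binds. The cytosolic pair is made from Txnrd1 and Txn1 and the mitochondrial pair from Txnrd2 and Txn2. In many cells the gene of the cytosolic reductase belongs to the antioxidant genes driven by the transcription factor NRF2, which acts through antioxidant response elements.

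AHSC, activated hepatic stellate cells from the liver of C57BL/6 mice, were either left untreated by the labels (vehicle by the study's legends) or given 0.03 µM auranofin for 12 h. BMDM, macrophages grown from C57BL/6 bone marrow, had ATP at 1 mM together with LPS at 100 ng/mL in both groups, so that no BMDM library was free of them, and auranofin for 1 h in one group. The BMDM dose was 0.1 µM by the labels, while the study's legend gives a higher one. Each of the 4 groups had 2 libraries, and the labels do not say whether these came from separate mice or cultures, so p-values measure the spread between these libraries, which may be technical.

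Expression was deposited as FPKM, that is, fragments scaled to the length of the transcript and to the size of the library, in 1 table for each cell type. Depth was not in the tables and was estimated at between 27550000 and 39500000 fragments from the steps between low values. The stellate marker list summed to between 4996 and 5730 FPKM in AHSC and to between 12.3 and 19.5 FPKM in BMDM. Macrophage markers were high in both tables, with sums of 10251 to 10397 FPKM in AHSC and 10714 to 11693 FPKM in BMDM, so that the AHSC libraries held the transcripts of both cell types. Hepatocyte markers summed to at most 2.44 FPKM in AHSC. In bulk RNA, fewer cells of a type and less RNA per cell cannot be told apart.

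The 2 BMDM auranofin libraries were unlike each other. In auranofin replicate 1, 482 of 9232 genes lay at least 1 log2 unit above the control mean and 242 at least 1 log2 unit below it. In auranofin replicate 2 these numbers were 12 and 7. The groups follow the labels, but the library labelled auranofin replicate 2 lay near the controls in most genes. Where the 2 auranofin libraries differ, a mean, a fold change or the lack of a call over both describes neither of them. Whether the label or the treatment of auranofin replicate 2 differed was not tested. BMDM values are therefore given library by library, and the fold changes of the 8 genes also without each auranofin library.

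The upstream sequences of Txnrd1 and Srxn1, the members called higher in AHSC by the test described below, are shown first. They are the 250 bases before the RefSeq transcript start on GRCm38.p6, the assembly of mm10, read 5′ to 3′ on the strand of the gene. Capitals mark matches on either strand to TGACNNNGC or TGAGNNNGC, the forms of the element's core, of which the second was added after the sequences had been seen. Txn1, whose window holds neither, is shown for comparison. Txnrd3 and Txn2, which were not called in AHSC, also hold a match and are not shown.

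Txnrd1, second of 3 starts, chr10:82858956-82859205, plus strand: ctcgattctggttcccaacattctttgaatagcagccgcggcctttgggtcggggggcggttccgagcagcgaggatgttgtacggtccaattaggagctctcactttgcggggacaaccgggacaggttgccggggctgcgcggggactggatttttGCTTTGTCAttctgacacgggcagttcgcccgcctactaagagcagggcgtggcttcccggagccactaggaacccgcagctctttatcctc
Srxn1, chr2:152105274-152105523, plus strand: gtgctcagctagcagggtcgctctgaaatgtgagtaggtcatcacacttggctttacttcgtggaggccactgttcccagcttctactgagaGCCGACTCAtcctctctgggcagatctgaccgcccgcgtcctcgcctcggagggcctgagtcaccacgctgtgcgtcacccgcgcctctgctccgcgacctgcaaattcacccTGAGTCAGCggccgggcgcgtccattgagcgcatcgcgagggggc
Txn1, chr4:57956412-57956661, minus strand: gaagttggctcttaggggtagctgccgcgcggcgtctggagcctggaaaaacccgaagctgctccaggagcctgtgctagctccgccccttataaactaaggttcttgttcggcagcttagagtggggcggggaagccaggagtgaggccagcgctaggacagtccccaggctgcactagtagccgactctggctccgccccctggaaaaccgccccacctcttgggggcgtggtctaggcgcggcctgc

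The Txnrd1 match reads GCTTTGTCA, the reverse strand of TGACNNNGC, and begins 92 bases before the start. The windows at the other 2 Txnrd1 starts hold no match. Srxn1 has a pair of matches to TGAGNNNGC. One begins 158 bases before the start and reads GCCGACTCA, on the reverse strand, and the other begins 45 bases before it and reads TGAGTCAGC. The latter contains TGAGTCA, the sequence of an AP-1 site, which overlaps the element. Txnrd3 and Txn2 each have 1 match to TGAGNNNGC, and Txnrd2, Txnip and Txndc17 have none. Of the 32851 RefSeq windows of this length, 10.2% held TGACNNNGC and 14.4% held TGAGNNNGC. Txnip has instead a pair of CACGAG sequences, 85 and 74 bases before the start, an E box form found in carbohydrate response elements that was also added after the sequences had been seen; 5.37% of windows held it. No member window held CACGTG, the E box, or TTCNNGAA, the heat shock element core, which 6.02% and 7.17% of windows held. These matches describe letters and no binding was measured.

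All 8 genes were detected in every library of both cell types. The order of the control levels, in FPKM and thus per length, was led by Txn1 in both. In AHSC the control means ran from Txn1 at 252 FPKM through Txnrd1 at 119, Txn2 at 70.5, Txndc17 at 57.7, Srxn1 at 54.0, Txnip at 48.8 and Txnrd2 at 8.91 to Txnrd3 at 3.59 FPKM. The libraries of Txndc17 and Srxn1 overlapped, and all other neighbours in this order were separate. In BMDM the order was Txn1 at 312 FPKM, Txnrd1 at 90.5, Txndc17 at 90.03, Txnip at 41.5, Txn2 at 35.7, Srxn1 at 17.7, Txnrd2 at 3.14 and Txnrd3 at 0.837 FPKM, where the libraries of Txnrd1 and Txndc17 overlapped. Levels are not compared between the tables, which were normalized separately.

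**Figure D1:**
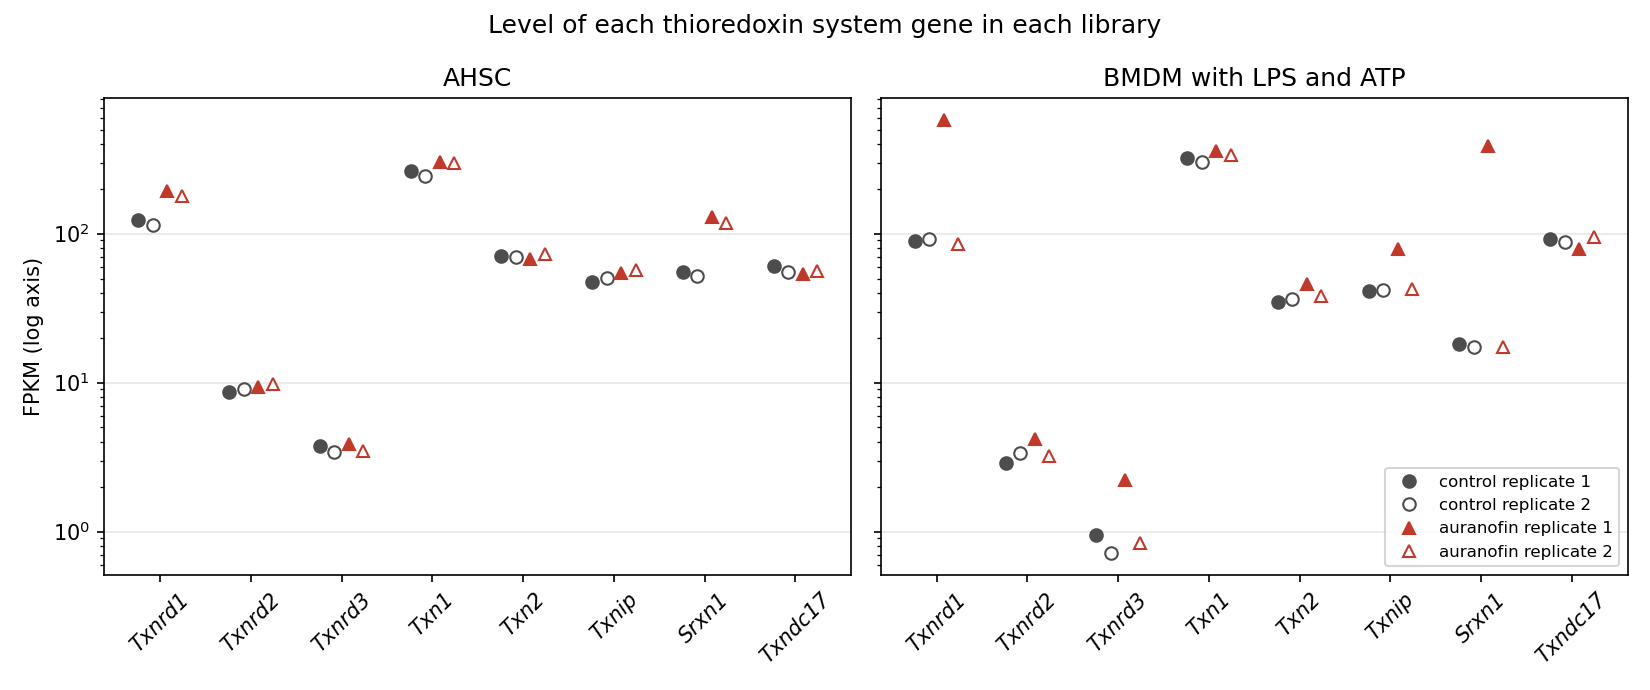
Level of each of the 8 genes in FPKM on a log axis, in AHSC on the left and LPS/ATP-treated BMDM on the right, with 1 point for each library (grey circles for control, red triangles for auranofin, filled for replicate 1 and open for replicate 2). Txnrd1 and Srxn1 lie higher in both AHSC auranofin libraries, while in BMDM the filled triangles of these genes, at 582 and 385 FPKM, stand far above the other 3 libraries.

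Each table was tested alone with limma on log2(FPKM + 1), and a gene was called at a Benjamini-Hochberg adjusted p under 0.05 over all genes tested. In AHSC, 2 of the 8 genes were called, Txnrd1 and Srxn1, both higher with auranofin, beside 151 higher genes among the 12149 tested (1.24%). None of the 8 was called lower, beside 1.09% of all genes. The 8 genes were chosen with earlier results of these data known, so these counts are no independent evidence. Both auranofin libraries lay above both control libraries in 5 of the 8 genes, as in 26.2% of all genes. The median log2 fold change was 0.14 over the 8 genes and 0.00 over all genes. With 2 libraries in each group, the smallest two-sided p of an exact permutation test is 0.333. By a second rule, at least 1.5-fold at an unadjusted p under 0.05, the same 2 of the 8 passed, beside 0.576% of all genes.

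Txnrd1 (NCBI gene 50493, chromosome 10, 82833951 to 82897724, plus strand, with 4 RefSeq transcripts in the tables) encodes the cytosolic reductase. In AHSC it had 123 and 114 FPKM in the control libraries and 194 and 180 FPKM with auranofin. The groups did not overlap, and the difference was larger than the spread within either. The mean was 119 ± 6.06 FPKM (SD, n = 2) in the controls and, with auranofin, 187 ± 10.2 FPKM (SD, n = 2), which is 57.6% higher. Its log2 fold change was 0.65 (SE 0.05, limma adjusted p = 0.00727). The call was lost when genes with low values were kept in the test, at an adjusted p of 0.0538 by limma. Txnrd1 ranked between percentiles 97.0 and 98.3 of all genes listed in the AHSC libraries.

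Srxn1 (NCBI gene 76650, chromosome 2, 152105524 to 152111376, plus strand) encodes sulfiredoxin, which restores peroxiredoxins that have been overoxidised. Its AHSC control libraries had 55.7 and 52.3 FPKM and its auranofin libraries 128 and 118 FPKM. The control mean of 54.0 ± 2.42 FPKM (SD, n = 2) rose by a factor of 2.29 with auranofin, to 123 ± 7.16 FPKM (SD, n = 2). For Srxn1 the log2 fold change was 1.18 (SE 0.05, limma adjusted p = 0.00174). Srxn1 was the member with the largest change in AHSC. Without variance sharing across genes, an alternative chosen after the data were seen, limma called 0 of 12149 genes, against 1585 at an unadjusted p under 0.05, and the adjusted p was 0.281 for Srxn1 and 0.308 for Txnrd1.

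Txn1 (NCBI gene 22166, chromosome 4, 57943373 to 57956411, minus strand), the cytosolic thioredoxin, had 262 and 243 FPKM in the AHSC control libraries and 303 and 298 FPKM with auranofin. Its groups did not overlap, with a mean of 252 ± 13.4 FPKM (SD, n = 2) in the controls against 301 ± 3.57 FPKM (SD, n = 2). This log2 fold change of 0.25 (SE 0.04) did not pass the test, at a limma adjusted p of 0.0551. Its limma adjusted p was 0.0413 with replicate number as a block, 0.0458 after quantile normalization and 0.0423 for means of at least 5 FPKM. It did not pass when genes with low values were kept (0.158), without trend (0.123), centred on the median (0.0520) or without moderation (0.373). Leaving out 1 library gave log2 fold changes from 0.20 (without control replicate 2) to 0.31 (without control replicate 1). A processed pseudogene, Txn-ps1, matches 309 bases of Txn1 at 95.8% identity and is not in the tables, so fragments could have been divided in the quantification.

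Txnip (NCBI gene 56338, chromosome 3, 96557957 to 96561857, plus strand) encodes a protein of the alpha-arrestin family that binds reduced thioredoxin and blocks it, and its gene is known to respond to glucose. In AHSC it had 47.1 and 50.4 FPKM in the control libraries and 54.4 and 56.7 FPKM with auranofin. The groups did not overlap, but the log2 fold change of 0.18 (SE 0.05) did not pass the test (limma adjusted p = 0.127). The antisense gene Gm15441 shares 606 of the 3123 exonic bases of Txnip (19.4%) on the opposite strand. It was listed at 0.0950 to 0.183 FPKM in AHSC and at no more than 0.0531 FPKM in BMDM; whether the quantification used strand is not stated.

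The mitochondrial pair gave no call in AHSC. Txnrd2 (NCBI gene 26462, chromosome 16, 18426417 to 18479073, plus strand), the mitochondrial reductase, had 8.72 and 9.09 FPKM in the control libraries and 9.42 and 9.84 FPKM with auranofin. Its groups did not overlap, but the difference was small, at a log2 fold change of 0.10 (SE 0.05, limma adjusted p = 0.356). Txn2 (NCBI gene 56551, chromosome 15, 77915051 to 77928994, minus strand), the mitochondrial thioredoxin, had 71.1 and 70.0 FPKM beside 67.5 and 73.1 FPKM. Its groups overlapped, and its log2 fold change was -0.01 (SE 0.05, limma adjusted p = 0.962).

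Txnrd3 (NCBI gene 232223, chromosome 6, 89643988 to 89675529, plus strand) encodes thioredoxin-glutathione reductase, known mainly from the testis. Its AHSC libraries had 3.77 and 3.41 FPKM without and 3.89 and 3.49 FPKM with auranofin, which overlapped (log2 fold change 0.03, SE 0.08, limma adjusted p = 0.871). Txndc17 (NCBI gene 52700, chromosome 11, 72207554 to 72210487, plus strand) encodes a thioredoxin-related protein that the cytosolic reductase also reduces. It had 60.2 and 55.2 FPKM in the control libraries and 53.9 and 56.5 FPKM with auranofin. These overlapped too, at a log2 fold change of -0.06 (SE 0.05, limma adjusted p = 0.597). The processed pseudogene Gm2965 matches 356 bases of Txndc17 at 90.7% identity and is not in the tables.

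A few cell type markers also differed between the same libraries, while most genes of their lists were not called. Of 15 stellate markers tested, 1 was called, Acta2, the smooth muscle actin of activated stellate cells, at 956 and 965 FPKM in the control libraries and 743 and 737 FPKM with auranofin (log2 fold change -0.38, limma adjusted p = 0.00719). The stellate list summed to 5584 and 5730 FPKM without and to 4996 and 5068 FPKM with auranofin. Of 14 macrophage markers tested, Clec4f, a Kupffer cell lectin, was called at a log2 fold change of 0.27, and Lyz2, the most abundant of them, had 5519 and 5554 FPKM without and 5379 and 5440 FPKM with auranofin. Of 10 endothelial markers, the sinusoidal genes Clec4g and Stab2 were called lower, at -0.44 and -0.37. Among the macrophage markers, 4 fold changes were above 0 and 10 below, with a median of -0.03. In the endothelial list 5 were above 0 and 5 below, with a median of -0.01. The stellate list had 4 above and 11 below, with a median of -0.08. Over all genes, 1.24% were called higher and 1.09% lower. None of these marker calls held when genes with low values were kept. Without auranofin replicate 1 the Clec4f call and 1 of the 2 endothelial calls were lost. Of 8 neutrophil and lymphocyte markers, S100a8 and S100a9 stood at 23.6 and 44.7 FPKM in auranofin replicate 2. In the other AHSC libraries they had no more than 6.87 and 10.7 FPKM. The remaining 6 were under 1 FPKM in every AHSC library. S100a8 and S100a9 were also present in every BMDM library, at 54.9 to 85.5 and 103 to 140 FPKM, so they are not particular to neutrophils here. The part of these cell types in the thioredoxin system results was not tested. Without AHSC auranofin replicate 2, Txnrd1 and Srxn1 were still called, and 229 genes were called in all.

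In LPS/ATP-treated BMDM, none of the 8 genes was called, in either direction, beside 1 of 9232 genes (0.0108%) that was called, higher. None had an unadjusted p under 0.05 by limma, which 49 of all genes had, and so none passed the second rule, which 0.152% of all genes did. Both auranofin libraries lay above both control libraries in 3 of the 8, Txn1, Txn2 and Txnip, as in 26.3% of all genes. The differences were carried by auranofin replicate 1, in which Txnrd1 and Srxn1 lay at least 1 log2 unit above the control mean, beside 5.22% of all genes. No member did so in auranofin replicate 2, beside 0.13% of all genes.

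Txnrd1 had 89.2 and 91.9 FPKM in the BMDM controls, 582 FPKM in auranofin replicate 1 and 85.3 FPKM in replicate 2. Replicate 1 was thus 6.43 times the control mean, while replicate 2 lay below both controls. Its log2 fold change over both was 1.29 (SE 0.98, limma adjusted p = 0.721). With replicate 2 left out it was 2.67, and with replicate 1 left out -0.08.

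Srxn1 showed the same split on a larger scale. It had 18.1 and 17.3 FPKM in the controls, 385 FPKM in auranofin replicate 1 and 17.3 FPKM in replicate 2. The first was 21.8 times the control mean and the second lay between the controls. The log2 fold change over both was 2.17 (SE 1.56, limma adjusted p = 0.721). With replicate 2 left out it was 4.37, and with replicate 1 left out -0.03. By the estimated depth, these values rest on about 38156 fragments in auranofin replicate 1 and on 1340 to 1682 fragments in each of the other 3 libraries.

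Txnip had 40.9 and 42.1 FPKM in the controls, 79.2 FPKM in auranofin replicate 1 and 42.3 FPKM in replicate 2. Replicate 1 lay at 1.91 times the control mean. Txnrd3, the lowest of the 8, had 0.955 and 0.718 FPKM in the controls, 2.22 FPKM in auranofin replicate 1 and 0.839 FPKM in replicate 2. The log2 fold changes of Txnip and Txnrd3, 0.47 (SE 0.33) and 0.41 (SE 0.32), did not pass the test (limma adjusted p = 0.721 for both). With replicate 2 left out they were 0.92 for Txnip and 0.81 for Txnrd3, and with replicate 1 left out 0.03 and 0.01.

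The thioredoxins themselves varied less. Txn1 had 321 and 303 FPKM in the control libraries and 360 and 336 FPKM with auranofin, a log2 fold change of 0.16 (SE 0.11). Txn2 had 35.0 and 36.4 FPKM in the controls and 46.0 and 38.4 FPKM with auranofin, a log2 fold change of 0.23 (SE 0.14). In both genes the auranofin libraries lay above the controls, and neither passed the test (limma adjusted p = 0.721 for both). With replicate 2 left out the fold changes were 0.21 for Txn1 and 0.36 for Txn2, and with replicate 1 left out 0.11 and 0.10.

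Txnrd2 had 2.88 and 3.39 FPKM in the BMDM controls and 4.16 and 3.21 FPKM with auranofin, and its groups overlapped (log2 fold change 0.18, SE 0.17, limma adjusted p = 0.721). Its fold change was 0.32 with replicate 2 left out and 0.03 with replicate 1 left out. These values rest on an estimated 164, 178, 279 and 211 fragments. Txndc17 was the member with a fold change below 0, with 92.0 and 88.1 FPKM in the controls, 78.4 FPKM in auranofin replicate 1 and 94.4 FPKM in replicate 2 (log2 fold change -0.06, SE 0.14, limma adjusted p = 0.832). The fold change of Txndc17 was -0.20 with replicate 2 left out and 0.07 with replicate 1 left out.

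Without auranofin replicate 2, limma called all 8 genes, 7 higher and 1 lower (Txndc17), but it then called 5997 of the 9232 genes tested, so the count is no result about these genes. That comparison sets 1 auranofin library against 2 controls, and the lone library was assumed to vary like the controls. Without auranofin replicate 1, it called 13 genes and none of the 8. The macrophage marker list summed to 11084 and 10714 FPKM in the controls and to 11693 and 10946 FPKM with auranofin, and none of its 12 tested genes was called. The median over all genes tested lay 0.18 log2 units above the control mean in auranofin replicate 1, and replicate 2 had a median of 0.00.

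**Figure D2:**
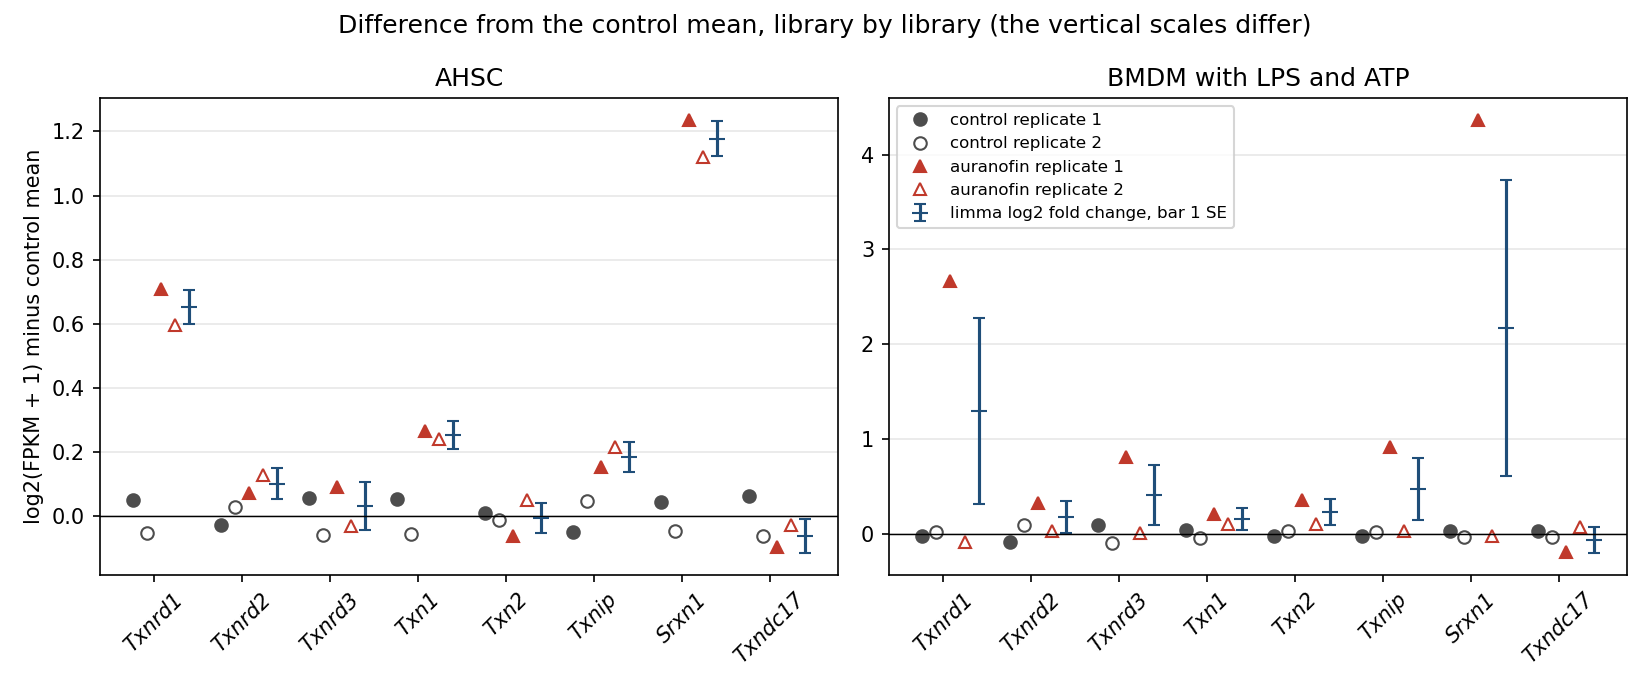
Difference of each library from the control mean on the log2(FPKM + 1) scale, for the 8 genes in AHSC on the left and LPS/ATP-treated BMDM on the right (grey circles for control, red triangles for auranofin, filled for replicate 1 and open for replicate 2), beside the limma log2 fold change with a bar of 1 SE either way. The AHSC auranofin replicates lie close together, at 0.71 and 0.60 for Txnrd1 and 1.24 and 1.12 for Srxn1, while in BMDM they lie apart, at 2.67 and -0.08 for Txnrd1 and 4.37 and -0.03 for Srxn1.

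Ratios within a library compare members of the system and do not depend on the library's scaling. They are descriptions, with no test. In AHSC, Txnrd1 stood at 0.469 and 0.471 of the Txn1 level without auranofin and at 0.640 and 0.603 with it. In BMDM that ratio was 0.278 and 0.303 in the controls, 1.62 in auranofin replicate 1 and 0.254 in replicate 2. Auranofin replicate 1 was thus the library in which the reductase transcript was more abundant per length than that of its substrate.

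The ratio of Srxn1 to Txnrd1 in AHSC was 0.453 and 0.457 without and 0.662 and 0.658 with auranofin, and the groups did not overlap. In BMDM it was 0.203 and 0.188 in the controls, 0.662 in auranofin replicate 1 and 0.203 in replicate 2. The ratio of the inhibitor Txnip to Txn1 overlapped between the AHSC groups, at 0.180 and 0.208 without and 0.179 and 0.190 with auranofin. In BMDM it was 0.127 and 0.139 in the controls, 0.220 in auranofin replicate 1 and 0.126 in replicate 2. The mitochondrial ratio of Txnrd2 to Txn2 in AHSC was 0.123 and 0.130 without and 0.140 and 0.135 with auranofin. These groups did not overlap, but the gap between them was smaller than the spread between the controls. In BMDM the mitochondrial ratio lay between 0.0823 and 0.0931, and the groups overlapped.

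**Figure D3:**
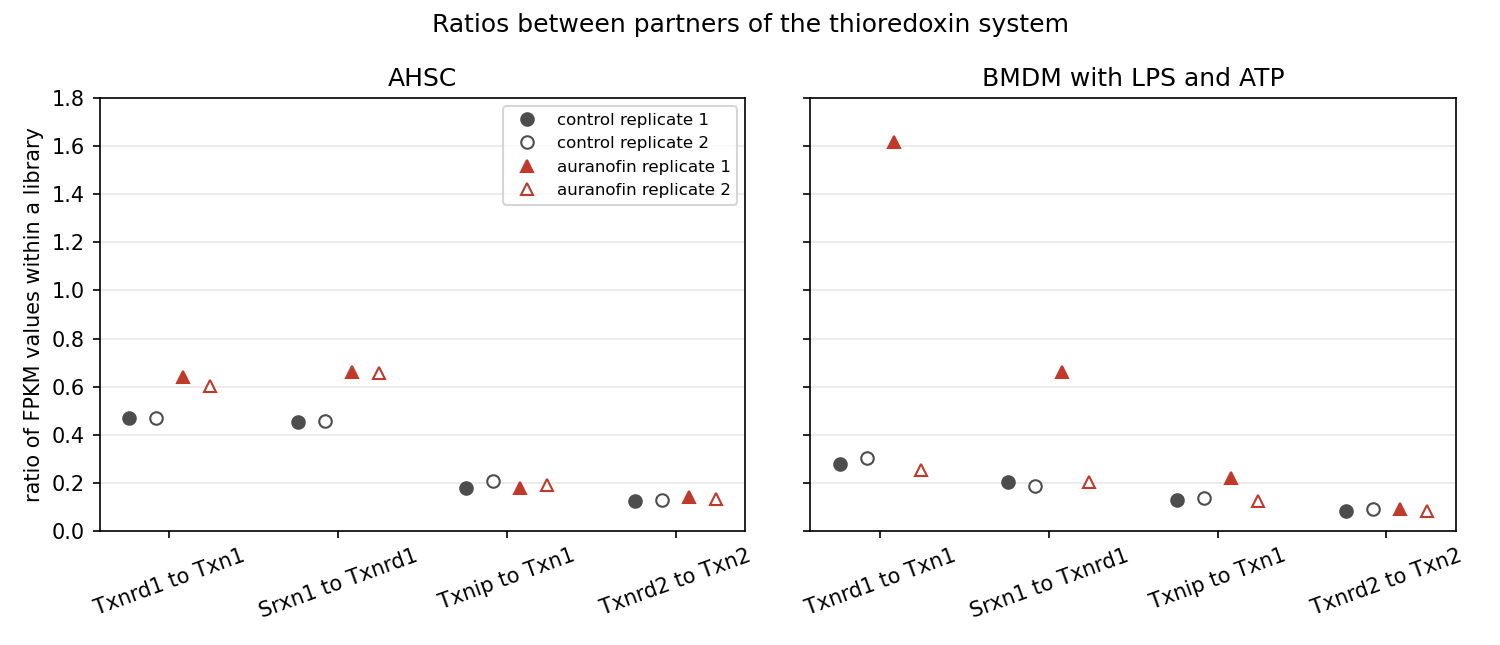
Ratio of FPKM values between members within each library, in AHSC on the left and LPS/ATP-treated BMDM on the right (grey circles for control, red triangles for auranofin, filled for replicate 1 and open for replicate 2). The Txnrd1 to Txn1 ratio is 0.640 and 0.603 in the AHSC auranofin libraries against 0.469 and 0.471 in the controls, and in BMDM it reaches 1.62 in auranofin replicate 1 alone.

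The rest of the pathway was read through lists of genes. In the list of thioredoxin clients, taken broadly as substrates or partners, 17 genes were tested in AHSC. Of these 1 was called, higher, beside 1.24% of all genes. Prdx1, a peroxiredoxin that removes hydrogen peroxide and is a substrate of sulfiredoxin, had 1063 and 986 FPKM without and 2113 and 2007 FPKM with auranofin (log2 fold change 1.01, SE 0.05, limma adjusted p = 0.00176). The list's median log2 fold change was 0.02. In BMDM, Prdx1 had 687 and 654 FPKM in the controls, 3075 FPKM in auranofin replicate 1 and 695 FPKM in replicate 2, and none of 16 genes was called.

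Other proteins with a thioredoxin domain, such as protein disulfide isomerases, gave no call among 18 tested in AHSC, with a median of 0.04, nor among 17 tested in BMDM. The other reduction system of the cell, glutathione with glutaredoxins, had 1 call among 5 genes in AHSC, higher, beside the same 1.24%. Gsr, which encodes glutathione reductase, had 37.9 and 33.0 FPKM without and 59.4 and 55.0 FPKM with auranofin (log2 fold change 0.68, SE 0.07, limma adjusted p = 0.0144), a call that was lost when genes with low values were kept. In BMDM Gsr had 17.4 FPKM in both controls, 55.9 FPKM in auranofin replicate 1 and 16.5 FPKM in replicate 2. The 4 glutaredoxin genes were not called in either table.

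The reductases are selenoproteins, and the genes that make selenocysteine or selenoproteins were read as well. Of 9 genes of selenoprotein synthesis in AHSC, Pstk, the kinase that prepares the charged transfer RNA for selenocysteine, was called higher, at 7.74 and 7.10 FPKM without and 9.88 and 9.90 FPKM with auranofin (log2 fold change 0.37, SE 0.05, limma adjusted p = 0.0355). That call stands beside 1.24% of all genes called higher. It was lost without either auranofin library, with the replicate number as a block, with eBayes without trend and when genes with low values were kept. None of 14 other selenoprotein genes was called in AHSC, and their median was -0.00. In BMDM none of these 9 and 14 genes was called. By the second rule 1 of the 14 passed, beside 0.152% of all genes. This was Gpx1, a glutathione peroxidase, named after its values were seen. It had 133 and 124 FPKM in the BMDM controls and was lower in both auranofin libraries, at 42.1 and 32.6 FPKM (log2 fold change -1.77, SE 0.17, limma adjusted p = 0.721). In AHSC, Gpx1 had 39.6 and 38.5 FPKM in the controls, 31.8 FPKM in auranofin replicate 1 and 121 FPKM in replicate 2.

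Of 6 genes tested among the other alpha-arrestins and regulators of Txnip, none was called in either table. Among them, Arrdc4, an alpha-arrestin regulated much as Txnip is, had 11.1 and 11.2 FPKM in the BMDM controls, 30.9 FPKM in auranofin replicate 1 and 11.97 FPKM in replicate 2. It was picked after its values had been seen.

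Other genes known as NRF2 targets were tested as a reference for Txnrd1 and Srxn1. In AHSC 12 of 14 were called higher and none was called lower. Their median log2 fold change was 0.72. These calls stand beside 1.24% of all genes. The largest were 1.68 for Hmox1, heme oxygenase, 1.58 for Gclm, a subunit of the first enzyme of glutathione synthesis, and 1.46 for Nqo1, a quinone reductase (limma adjusted p between 0.00132 and 0.00845). Both auranofin libraries lay above both controls in all 14, beside 26.2% of all genes. Of 6 regulators of NRF2, the gene of NRF2 itself, Nfe2l2, was called lower, beside 1.09% of all genes. Nfe2l2 had 123 and 119 FPKM without and 102 and 99.0 FPKM with auranofin (log2 fold change -0.26, limma adjusted p = 0.0289). The Nfe2l2 call was lost without either auranofin library, with eBayes without trend and when genes with low values were kept. When genes with low values were kept in the test, 7 of the 14 targets were called. In BMDM no NRF2 target or regulator was called. The median difference of the 12 targets tested was 1.74 in auranofin replicate 1, where 9 lay at least 1 log2 unit above the control mean, and 0.01 in auranofin replicate 2. Earlier results of these data had shown NRF2 targets to differ, so the list is no independent evidence.

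**Figure D4:**
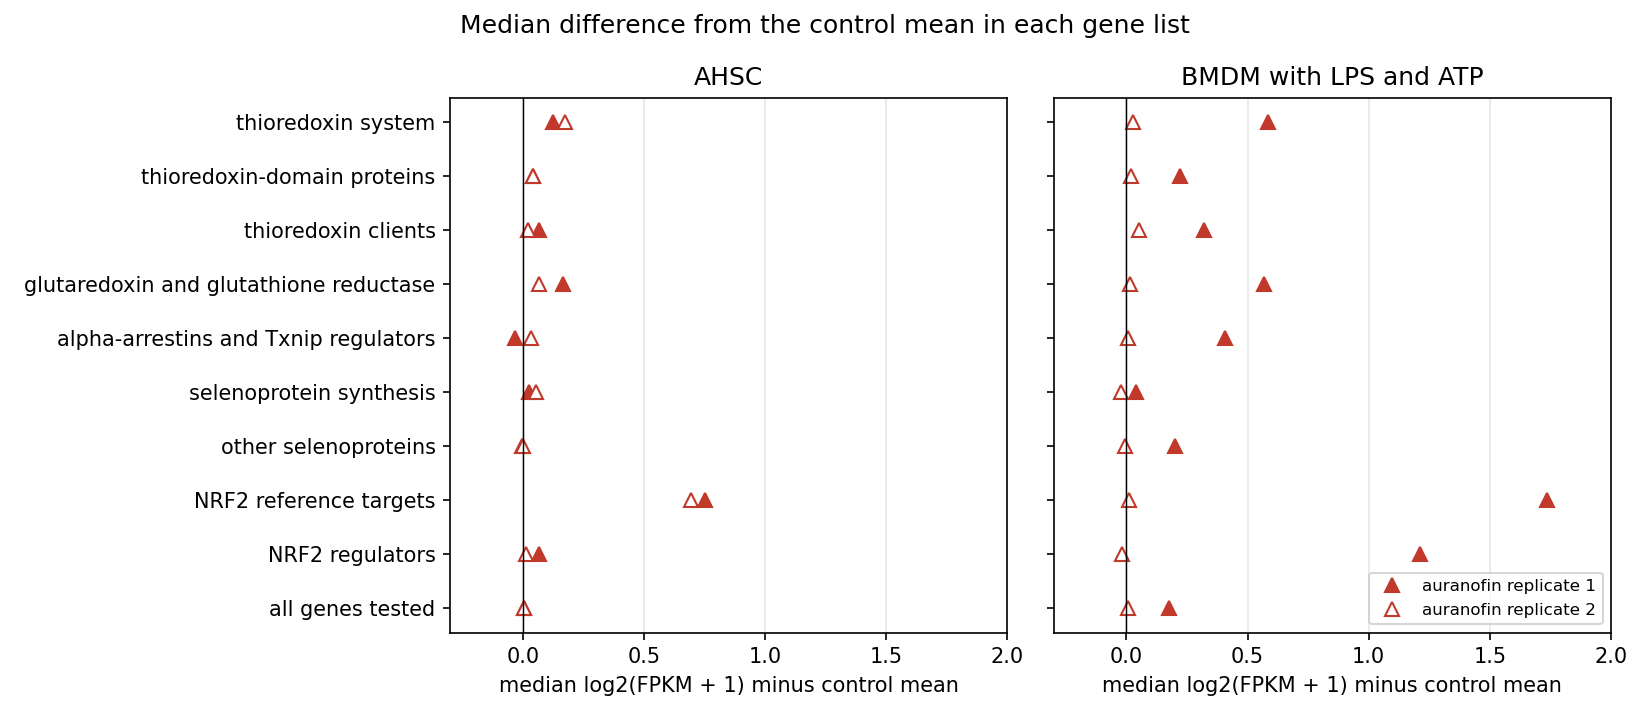
Median difference from the control mean, on the log2(FPKM + 1) scale, over the genes of each list that were tested, in each auranofin library (filled triangles for replicate 1, open for replicate 2), in AHSC on the left and LPS/ATP-treated BMDM on the right. The NRF2 targets lie at 0.75 and 0.69 in AHSC and at 1.74 and 0.01 in BMDM, and the 8 thioredoxin system genes at 0.12 and 0.17 in AHSC and at 0.58 and 0.03 in BMDM.

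The genes whose pattern was nearest to those of Txnrd1, Srxn1 and Txnip were found over the 8 libraries among the 8963 genes tested in both tables, by the root mean square difference of their log2 differences from the control mean of their own table. The nearest to Txnrd1 were Uchl1 at 0.123, Osgin1 at 0.133, Cbr3 at 0.143, Slc48a1 at 0.147 and Procr at 0.153. Uchl1, a ubiquitin hydrolase, had 43.4 and 41.4 FPKM without and 72.0 and 64.6 FPKM with auranofin in AHSC. In BMDM it had 2.35 and 2.21 FPKM in the controls, 17.8 FPKM in auranofin replicate 1 and 2.81 FPKM in replicate 2. Nearest to Srxn1 were Gclm at 0.221, Slc7a11, the cystine transporter subunit, at 0.328 and Slc40a1, the iron exporter, at 0.377. Nearest to Txnip were Tmem120a at 0.0400, Pycrl at 0.0408 and Pgam1, a glycolytic enzyme, at 0.0436. In BMDM Pgam1 had 72.1 and 77.8 FPKM in the controls, 141 FPKM in auranofin replicate 1 and 75.8 FPKM in replicate 2. These measures rest largely on 1 library, BMDM auranofin replicate 1, and have no test.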

How the data were processed

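The authors made 8 libraries from mRNA (TruSeq Stranded mRNA LT). Per the labels, the submitters' processing notes name CASAVA, FastQC 0.11.7, Trimmomatic 0.38, HISAT2 2.1.0 and StringTie 1.3.4d, and the tables give mm10 with RefSeq transcripts. The deposited values are FPKM, which the authors scaled to transcript length and library, in 1 table per cell type. The tables hold no counts and no columns of comparisons. Depth was estimated from the steps between values under 0.2 FPKM in genes with 1 transcript, with GENCODE M21 lengths; between 55.9% and 63.0% of these values lay within 0.1 of a whole fragment at the depth chosen, so the depths are approximate and cover counting error only.

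Each table was fitted alone with limma 3.58.1 in R 4.3.3 (lmFit, eBayes with trend) on log2(FPKM + 1), a scale that understates the change of low genes. Genes were tested if the 4 libraries averaged 1 FPKM or more, and called at a Benjamini-Hochberg adjusted p under 0.05. The test was also run on simulated data in which both auranofin libraries moved alike, so that run is no check for BMDM. Its outcome is not reported here. Groups came from the sample titles. Alternatives are given with the closing values. The treatment time of AHSC came from the study's legend and that of BMDM from the study's text. Promoter windows and coordinates came from RefSeq on GRCm38.p6, where all 8 genes matched, overlaps from GENCODE M21, and copies from blastn 2.17.0 over its transcripts.

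The 8 genes and all gene lists were chosen with earlier results of these data known. The lists cover thioredoxin-domain proteins, thioredoxin clients, glutaredoxins with glutathione reductase, alpha-arrestins, selenoprotein synthesis, other selenoproteins, NRF2 targets and regulators, and markers of macrophages, stellate, endothelial, hepatocyte, neutrophil and lymphocyte origin. From each list at most 3 called genes per direction were named, those with the largest change, and the genes most like Txnrd1 (5), Srxn1 (3) and Txnip (3) by their differences in the 8 libraries. Prdx1 and Gsr in BMDM follow from their AHSC calls, Lyz2 was a set reference level, and S100a8, S100a9, Arrdc4 and Gpx1 were named after their values were seen. One gene that shares exonic bases with a member is not reported here.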

Additional observations from a re-analysis of the deposited data

How the results depend on the processing

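Srxn1 in AHSC was called under each alternative with a test except the one without moderation, where limma called 0 genes and 0 of the 8 (1585 genes had an unadjusted p under 0.05). Txnrd1 also lost its call when genes with low values were kept, which left 49 genes called and 1 of the 8. The thresholds of 1.5-fold with an unadjusted p under 0.05 gave 70 genes, Txnrd1 and Srxn1 among them, and eBayes without trend gave 129. Leaving out each AHSC library in turn gave between 177 genes (without auranofin replicate 1) and 493 genes (without control replicate 1), and between 2 and 3 of the 8. In these runs the sign of small, uncalled fold changes turned: Txnrd3 ranged from -0.030 (without auranofin replicate 1; -0.026 without control replicate 2) to 0.092, Txn2 from -0.063 to 0.051 (positive without control replicate 1 or auranofin replicate 1), and Txndc17 from -0.12 to 0.00065 (without control replicate 1).

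In BMDM the count of genes was 14 by the 1.5-fold rule, 0 with low values kept, 0 after quantile normalization, 0 without moderation and 2 without trend, and none of these included any of the 8. Leaving out each library in turn gave between 1 and 5997 genes (3 without control replicate 2), and between 0 and 8 of the 8. Between the run without auranofin replicate 1 and the run without auranofin replicate 2, Txnrd1 ranged from -0.084 to 2.67, Srxn1 from -0.028 to 4.37 and Txndc17, in the opposite order, from 0.068 to -0.20. Quantile normalization and centring moved the BMDM median of all genes from 0.09 to about 0, and no member changed direction, but small fold changes shrank or grew: Txnrd2 went from 0.18 to 0.051 (quantile) and 0.083 (centred), Txn1 from 0.16 to 0.063 (centred), Txn2 from 0.23 to 0.14 (centred) and Txndc17 from -0.065 to -0.16 (centred).

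The replicate number was also tried as a block. The correlation of the deviations of same-numbered libraries was r = 0.11 in AHSC and -0.055 in BMDM over all genes tested, with only 2 pairs, and the labels name no shared batch, so the samples share only a number. With the replicate block, 282 genes and 3 of the 8 were called in AHSC (Txn1 added), and 1 gene and 0 of the 8 in BMDM. The depth leaves the values of Txnrd2 and Txnrd3 least precise.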
